A study of Homo sapiens with 45 samples.

Results

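ZFAS1, GAS5, SNHG1, SNHG5, SNHG6, SNHG7, SNHG8, SNHG12, SNHG15 and SNHG16 are noncoding genes that carry small nucleolar RNAs (snoRNAs) in their introns. The group holds 10 of the 28278 gene names in the table of 8 RNA libraries. ZFAS1 was chosen for its rise after HNRNPK siRNA in these libraries, and the other 9 were chosen by gene class, as noncoding snoRNA hosts. Its knockdown values are therefore a description with no test, and adjusted p-values are given for the other 9.

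The cells were HCT116, an established human colon cancer line. They were plated onto 25 nM nontargeting or HNRNPK siRNA and collected after 72 hours. HNRNPK encodes a heterogeneous nuclear ribonucleoprotein that binds RNA and single-stranded DNA. The siNTC5 group held 4 nontargeting libraries and the siHNRNPK group held 4 knockdown libraries, all purified on a Maxwell instrument. In both groups replicates 1 and 2 were made with the TruSeq stranded mRNA kit and replicates 3 and 4 with the Stranded mRNA Ligation kit. The Scramble group held 2 more nontargeting libraries, which were purified with an RNeasy kit, made with the TruSeq kit and deposited in separate tables. The labels name 1 cell line and do not say whether replicates were separate cultures, so p-values measure the spread between these libraries, which may be technical. The knockdown was made by siRNA of a sequence not given in the labels, and a knockdown lowers a transcript without removing it.

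A snoRNA host gene is transcribed as a long precursor, and its snoRNAs are released from introns after splicing. Box C/D snoRNAs, named SNORD, guide ribose methylation and box H/ACA snoRNAs, named SNORA, guide pseudouridylation, mostly of ribosomal RNA. The spliced exons of noncoding hosts are exported, often carry short reading frames, and many are removed by nonsense-mediated decay, a translation-dependent RNA decay pathway. Many hosts also start transcription within a run of pyrimidines, the 5′ terminal oligopyrimidine feature that ribosomal protein genes share.

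RefSeq (GRCh38.p14) placed 37 snoRNA genes inside the 10 spans. ZFAS1 (chr20:49278178-49289260) holds 3, all SNORD. GAS5 (chr1:173863901-173869045) holds 11, of which 10 are SNORD and 1 is SNORA. SNHG1 (chr11:62851978-62855885) holds 9, SNHG5 (chr6:85677007-85678733) holds 2 and SNHG6 holds 1. SNHG16 (chr17:76557764-76565348) holds 3, all SNORD. The H/ACA hosts are SNHG7 (chr9:136724594-136728184) with 2, SNHG8 (chr4:118278762-118279823) with 1 and SNHG15 (chr7:44983023-44986696) with 1. SNHG12 (chr1:28578538-28582983) holds 1 SNORD and 3 SNORA.

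The transcription starts show a sequence feature that the choice of members did not use. RefSeq promoter entries (GRCh38.p14) were read for 8 of the 10 members. The starts of SNHG6 and SNHG15 were not read, so whether they hold a run was not tested. A run was defined as a C at the annotated start followed by at least 3 further C or T bases on the gene's strand, with no base skipped. The windows below hold 30 bases before the annotated start and 30 bases from it onward, read 5′ to 3′ on the gene's strand, with the run in capitals. The 4 with a run are ZFAS1 (chr20:49278612-49278671, plus strand), SNHG5 (chr6:85678704-85678763, minus strand), SNHG7 (chr9:136728155-136728214, minus strand) and SNHG12 (chr1:28581844-28581903, minus strand).
ZFAS1: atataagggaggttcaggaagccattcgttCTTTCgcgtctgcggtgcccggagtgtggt
SNHG5: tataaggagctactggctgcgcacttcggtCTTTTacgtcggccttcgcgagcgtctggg
SNHG7: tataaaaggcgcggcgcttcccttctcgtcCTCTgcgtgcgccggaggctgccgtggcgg
SNHG12: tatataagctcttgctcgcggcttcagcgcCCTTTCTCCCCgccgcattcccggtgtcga
The runs are 5 bases in ZFAS1, 5 in SNHG5, 4 in SNHG7 and 11 in SNHG12. The next 4 windows have no such run and are shown for contrast: GAS5 (chr1:173869016-173869075, minus strand), SNHG1 (chr11:62855856-62855915, minus strand), SNHG8 (chr4:118278732-118278791, plus strand) and SNHG16 (chr17:76557734-76557793, plus strand).
GAS5: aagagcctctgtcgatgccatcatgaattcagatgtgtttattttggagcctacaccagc
SNHG1: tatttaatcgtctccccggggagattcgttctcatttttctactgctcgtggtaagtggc
SNHG8: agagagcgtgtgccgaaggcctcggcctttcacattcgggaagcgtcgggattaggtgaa
SNHG16: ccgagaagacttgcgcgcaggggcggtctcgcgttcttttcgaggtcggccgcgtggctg
SNHG1 starts with a C and 2 further pyrimidines, 1 base short of the definition. Of all 35116 RefSeq promoter entries, 1914 (5.45%) hold the run, against 4 of the 8 member entries that were read. The run is present in 18 of 41 coding snoRNA hosts with an entry and in 5 of 18 other noncoding hosts. The start is that of the RefSeq entry, which for ZFAS1 and SNHG12 lies inside the gene span given above. An annotated start is a single base, and cells use nearby bases too, so a missing run says only that these letters do not begin at that base. The GAS5 start, 173869045, lies inside the span of the neighbouring gene ZBTB37 (chr1:173868082-173903547). SNORD74, the snoRNA gene nearest to it in GAS5, lies at chr1:173867674-173867745. Other starts of GAS5 were not read, so whether one of them holds a run was not tested.

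The libraries held 12107280 to 23633851 counts in the 8-library table and 55007171 and 59209169 in the Scramble tables. HNRNPK, the siRNA target, had 934, 967, 822 and 814 CPM (TMM-normalised counts scaled to library size) in siNTC5 replicates 1 to 4 and 250.3, 223, 157 and 164 in siHNRNPK. Its log2 fold change was -2.17 ± 0.06 (SE), and every siHNRNPK library lay below every siNTC5 library. The Scramble libraries had 815 and 851 CPM on the names shared by the tables, the scale of all Scramble values here. On that scale siNTC5 had 931, 968, 827 and 819. HNRNPK was called lower in Scramble than in siNTC5 in 18 alternatives (log2 differences of -0.51 to -0.19) and not in 1. Of 6 colon epithelial markers, 5 reached 1 CPM in each group, and VIL1 stayed below that in all libraries. Their summed CPM was 2685 to 3100 in siNTC5, 4393 to 5427 in siHNRNPK and 4140 to 4244 in Scramble. The list did not move together: KRT8, KRT18, EPCAM and CDH1 were higher in siHNRNPK than in siNTC5, whereas KRT19 fell by 1.27 on the log2 scale (SE 0.06, edgeR adjusted p = 1.36e-12). KRT19 averaged 806 ± 159 CPM in siNTC5 and 333 ± 57.2 in siHNRNPK (SD, n = 4), and had 1508 and 1551 CPM in Scramble. The leukocyte markers PTPRC and CD3E summed to at most 0.149 CPM. Of 3 fibroblast markers COL1A1 alone reached 1 CPM, and the list summed to 43.5 to 72.3 in siNTC5, 74.7 to 122 in siHNRNPK and 31.5 to 35.0 in Scramble. The endothelial markers PECAM1 and VWF summed to 0.602 to 0.933, 1.32 to 3.098 and 1.26 to 1.56 CPM in the same order. The part of these shifts in the results below was not tested.

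ZFAS1 lies head to head with ZNFX1 and hosts the SNORD12 family. In siNTC5 it had 95.3, 91.2, 88.3 and 90.4 CPM, a mean of 91.3 ± 2.93 (SD, n = 4). After HNRNPK siRNA it had 241, 256, 242 and 241 CPM, a mean of 245 ± 7.05 (SD, n = 4). The groups did not overlap, and the range within each was narrow beside the gap between them. The log2 fold change was 1.42 ± 0.04 (SE), or 2.69-fold, the 579th highest of 13933 tested genes. In bulk RNA, more cells with a high ZFAS1 level and more ZFAS1 RNA per cell cannot be told apart. The gain was 1.42 within the TruSeq libraries and 1.43 within the Ligation libraries. The difference between kits, which did not enter the choice of the gene, was 0.02 ± 0.08 on the log2 scale (edgeR adjusted p = 0.955 over 13933 genes).

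Of the other 9 members, 8 rose and none fell at an adjusted p under 0.05 in edgeR's quasi-likelihood test. Among all 13933 tested genes, 35.5% were called higher and 36.1% lower, so a call in either direction was common in this experiment. The class was proposed with earlier results of this comparison known, so the count is read as a description. The median log2 fold change of the 9 was 0.83, against -0.00 over all tested genes. None of the 9 was lower at an unadjusted p under 0.05 either, by edgeR or by DESeq2 (0 and 0).

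**Figure D1:**
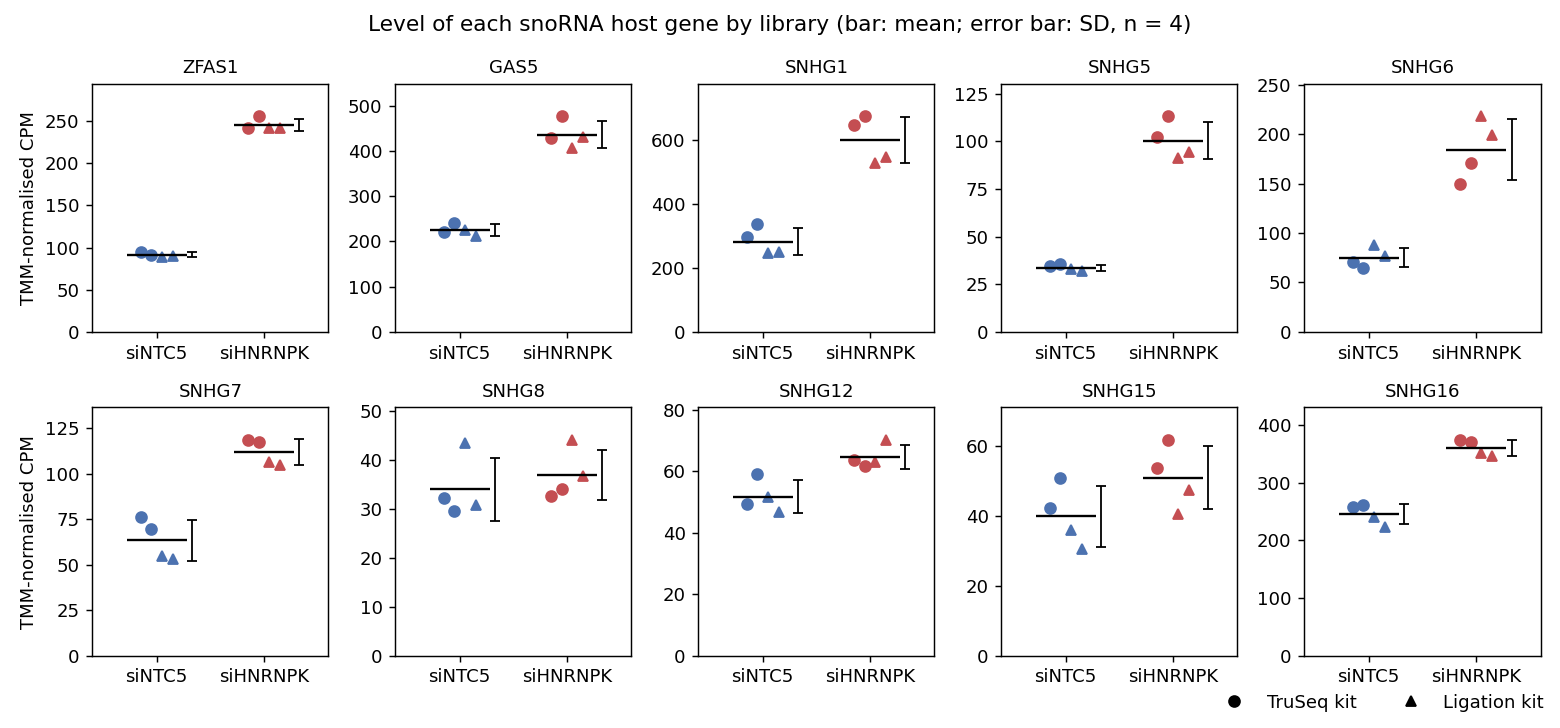
TMM-normalised CPM of each host gene in the 8 libraries, with a linear axis from 0 in every panel. Points are libraries, bars are means and error bars are SD over 4 libraries. The siHNRNPK points lie above all siNTC5 points in every panel except SNHG8 and SNHG15.

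Among the box C/D hosts, SNHG5 had the largest difference of the 10. It hosts SNORD50A and SNORD50B. SNHG5 had 34.7, 35.5, 33.0 and 32.0 CPM in siNTC5 and 102, 113, 91.2 and 94.6 in siHNRNPK. The groups were far apart, and the log2 difference was 1.57 ± 0.06 (edgeR adjusted p = 4.29e-14).

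SNHG6 (chr8:66921690-66925541) is the host of SNORD87. It had 71.0, 64.6, 87.7 and 76.7 CPM in siNTC5 and 149, 171, 218 and 199 in siHNRNPK. In both groups the Ligation libraries were the higher, and the groups did not overlap. SNHG6 rose by 1.29 ± 0.06 on the log2 scale (adjusted p = 1.07e-12).

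SNHG1 hosts a row of SNORD genes, among them SNORD22 and SNORD25 to SNORD31. It had 297, 337, 245 and 249.9 CPM in siNTC5 and 645, 673, 528 and 545 in siHNRNPK. The TruSeq libraries were the higher in both groups, the reverse of the order seen for SNHG6. SNHG1 rose by 1.09 ± 0.04 on the log2 scale (adjusted p = 2.92e-13).

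GAS5, named for its accumulation in growth-arrested cells, is a well-studied target of nonsense-mediated decay. It had 221, 242, 225 and 211 CPM in siNTC5 and 428, 477, 407 and 429.8 in siHNRNPK. All siHNRNPK libraries were above all siNTC5 libraries, and GAS5 rose by 0.95 ± 0.05 on the log2 scale (adjusted p = 3.28e-12).

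SNHG16 hosts SNORD1A, SNORD1B and SNORD1C. It had 257, 261, 240.2 and 222 CPM in siNTC5 and 374, 371, 351 and 346 in siHNRNPK. The groups did not overlap, and SNHG16 rose by 0.56 ± 0.04 (adjusted p = 6.42e-10).

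The log2 fold changes of the H/ACA hosts and of SNHG12, which holds mostly SNORA genes, ran from 0.12 to 0.83. GAS5, described above with the box C/D hosts, also holds 1 SNORA gene. SNHG7, which hosts SNORA17A and SNORA17B, had 76.3, 69.7, 54.8 and 53.3 CPM in siNTC5 and 119, 118, 107 and 105 in siHNRNPK. The TruSeq libraries were the higher in both groups. SNHG7 rose by 0.83 ± 0.06 on the log2 scale (adjusted p = 3.79e-10).

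SNHG15, the host of SNORA9, had 42.2, 50.9, 35.9 and 30.6 CPM in siNTC5 and 53.8, 61.8, 40.7 and 47.5 in siHNRNPK. The groups overlapped across kits and did not overlap within a kit. SNHG15 rose by 0.36 ± 0.08 (adjusted p = 0.000541) in the model with a kit term. Without that term the adjusted p was 0.0750.

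SNHG12, the host of SNORD99 and 3 SNORA genes, had 49.4, 59.3, 51.6 and 46.7 CPM in siNTC5 and 63.7, 61.6, 63.1 and 70.3 in siHNRNPK. The groups lay close together without overlapping. SNHG12 rose by 0.32 ± 0.07 (adjusted p = 0.000561), and the TruSeq libraries alone gave 0.21 (adjusted p = 0.0757).

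SNHG8, the host of SNORA24, did not pass the test. It had 32.3, 29.5, 43.5 and 30.8 CPM in siNTC5 and 32.6, 34.1, 44.2 and 36.8 in siHNRNPK. The groups overlapped, and the highest library of each was Ligation replicate 3. The log2 fold change was 0.12 ± 0.09 (adjusted p = 0.246), with a 95% interval of -0.06 to 0.30 from the standard error. Without siNTC5 replicate 3 it was 0.22 (adjusted p = 0.0336).

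The knockdown difference was compared between the 2 library kits, each with 2 libraries per group. No member passed the interaction test in edgeR, where 0.129% of all tested genes did. On counts simulated with known changes, this test found 10 of 67 genes changed 1.5-fold and 36 of 67 changed 2-fold. Small kit differences can therefore be missed. By edgeR 1 unadjusted p was under 0.05 and by DESeq2 1 was, and 0 of the 10 passed after adjustment by either. SNHG7 had the largest kit difference, with a log2 fold change of 0.70 within TruSeq and 0.96 within Ligation. The difference of 0.27 ± 0.09 had an adjusted p of 0.246 in edgeR, and 0.0414 without siNTC5 replicate 2. SNHG12 had 0.21 within TruSeq and 0.43 within Ligation, and that difference of 0.24 ± 0.13 did not pass (adjusted p = 0.473). For SNHG5 the TruSeq value of 1.62 was above the Ligation value of 1.51, a difference of -0.10 ± 0.11 (adjusted p = 0.763). HNRNPK itself fell by 2.00 on the log2 scale in the TruSeq libraries and by 2.36 in the Ligation libraries. That difference of -0.34 ± 0.08 did not pass (adjusted p = 0.100), but passed in 4 of 14 alternatives, with an adjusted p as low as 0.000428.

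**Figure D2:**
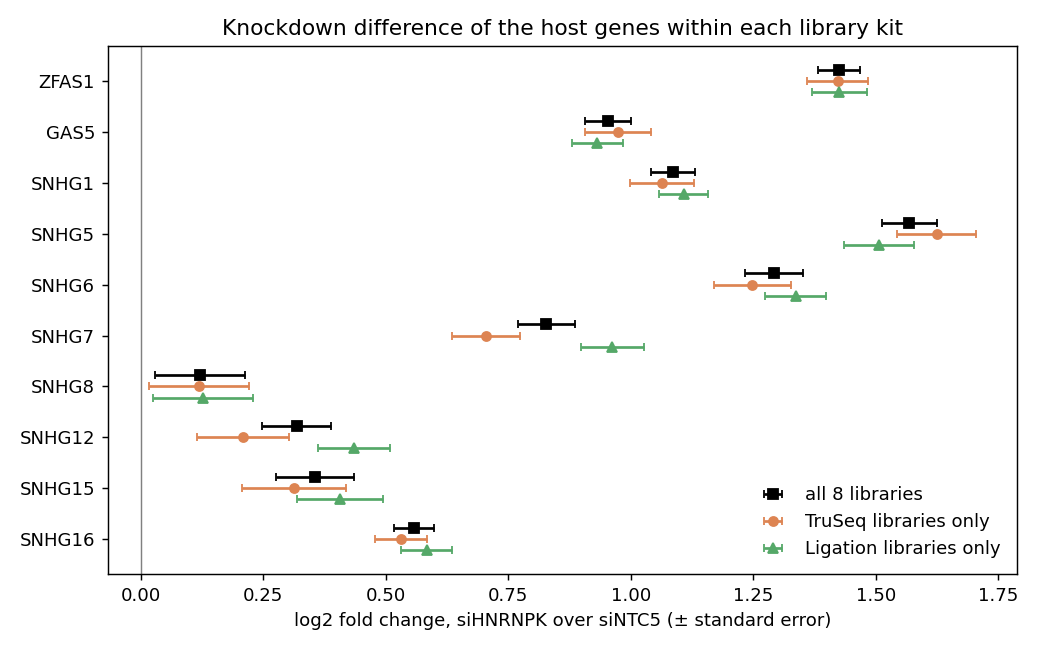
Log2 fold change of siHNRNPK over siNTC5 for each host gene, with standard errors, from all 8 libraries and from each kit alone. All 10 values lie to the right of 0 in each fit, and the kit values are farthest apart for SNHG7 (0.70 and 0.96).

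The snoRNA genes inside the hosts have rows of their own in the count table. Of the 37, 36 have a row among the 8 libraries, and 28 passed the filter on low counts. The libraries were made from polyadenylated RNA, whereas a mature snoRNA has no poly(A) tail, so these rows do not measure the mature snoRNA pool, and the kind of RNA behind these reads was not tested. The counts were low, at most 409 in any library. Leaving out the 3 rows inside ZFAS1, which are described without a test, 25 rows were tested. Of these 18 were called higher in siHNRNPK and 0 lower, beside backgrounds of 35.5% and 36.1%, and 0 were lower at an unadjusted p under 0.05 by edgeR or DESeq2. The filter on low counts could be met by libraries of either group. SNORA103, SNORD77 and SNORD50B, all called higher, missed its level in a siNTC5 library (8, 9 and 13 counts). They reached it in every siHNRNPK library, so their entry into the test used the group where they were high. With a mean of at least 50 counts required, 6 of them were called higher, but rows with fewer counts were then not tested. SNORD50B, with at most 32 counts, is an example. With the TruSeq libraries alone 11 were called higher. The median log2 fold change of the 25 was 0.76. In Scramble against siNTC5, 28 such rows were tested, with 3 higher, 20 lower and a median of -1.28, beside 37.5% and 31.8% of all genes. These rows thus differed more between the nontargeting controls, whose count tables also differ. For siHNRNPK against Scramble 23 were higher and 2 lower (median 1.84), beside 38.8% and 42.4%.

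Within ZFAS1 the rows differed among themselves. SNORD12 averaged 1.38 ± 0.563 CPM in siNTC5 and 2.73 ± 0.332 in siHNRNPK (SD, n = 4), a log2 difference of 0.98 ± 0.26. SNORD12B had a log2 difference of 0.49 ± 0.18 and SNORD12C one of -0.41 ± 0.30. No p is given for them, since reads over their host chose it. All 3 values were below the 1.42 of ZFAS1. Summed over the 3 rows, the snoRNA counts were 4.84% to 7.97% of the ZFAS1 count in siNTC5 and 2.46% to 3.77% in siHNRNPK. ZFAS1 was chosen for the rise of that count, which favours a lower share and rows below the host, so both are descriptions.

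In GAS5, 7 of 10 tested rows were called higher, among them SNORA103 and SNORD77, whose entry used siHNRNPK libraries as described above. SNORD80, with the most counts, averaged 15.7 ± 1.10 CPM in siNTC5 and 22.5 ± 2.54 in siHNRNPK. It rose by 0.52 ± 0.08 (adjusted p = 1.11e-05), and SNORD44 rose by 0.77 ± 0.18 (adjusted p = 0.000657). SNORD74 and SNORD76 had log2 fold changes of 0.10 ± 0.18 and 0.10 ± 0.16 and did not pass (adjusted p = 0.644 and 0.597). The median of the 10 rows was 0.65, against 0.95 for GAS5. The 11 rows together were 17.4% to 19.9% of the GAS5 count in siNTC5 and 12.5% to 14.5% in siHNRNPK.

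In SNHG1, 6 of 7 tested rows were called higher. SNORD28 averaged 4.20 ± 1.31 CPM in siNTC5 and 10.6 ± 1.20 in siHNRNPK and rose by 1.32 ± 0.14 (adjusted p = 1.21e-07). SNORD29 rose by 1.02 ± 0.16 (adjusted p = 2.06e-05). SNORD31, in the same host, averaged 9.15 ± 1.18 and 9.24 ± 1.04 CPM, a log2 difference of 0.02 ± 0.12 (adjusted p = 0.904). SNORD31 is thus the row of SNHG1 whose groups lay closest.

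Rows in the small hosts were few. SNORD50B in SNHG5 rose by 1.33 ± 0.26 (adjusted p = 0.000162) and SNORD87 in SNHG6 by 1.23 ± 0.21 (adjusted p = 3.78e-05). In SNHG12, SNORD99 rose by 0.96 ± 0.20 (adjusted p = 0.000350) and SNORA16A by 0.91 ± 0.16 (adjusted p = 7.08e-05), beside 0.32 for the host. The SNHG12 rows together were 9.72% to 11.5% of the host count in siNTC5 and 15.4% to 18.2% in siHNRNPK, the opposite direction to ZFAS1 and GAS5. SNORA24 in SNHG8 had -0.33 ± 0.38 (adjusted p = 0.456) and SNORA9 in SNHG15 had -0.17 ± 0.23 (adjusted p = 0.519). SNORA17A and SNORA17B were listed at 0 in all 8 libraries. The shares of the host count were not tested between groups.

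**Figure D3:**
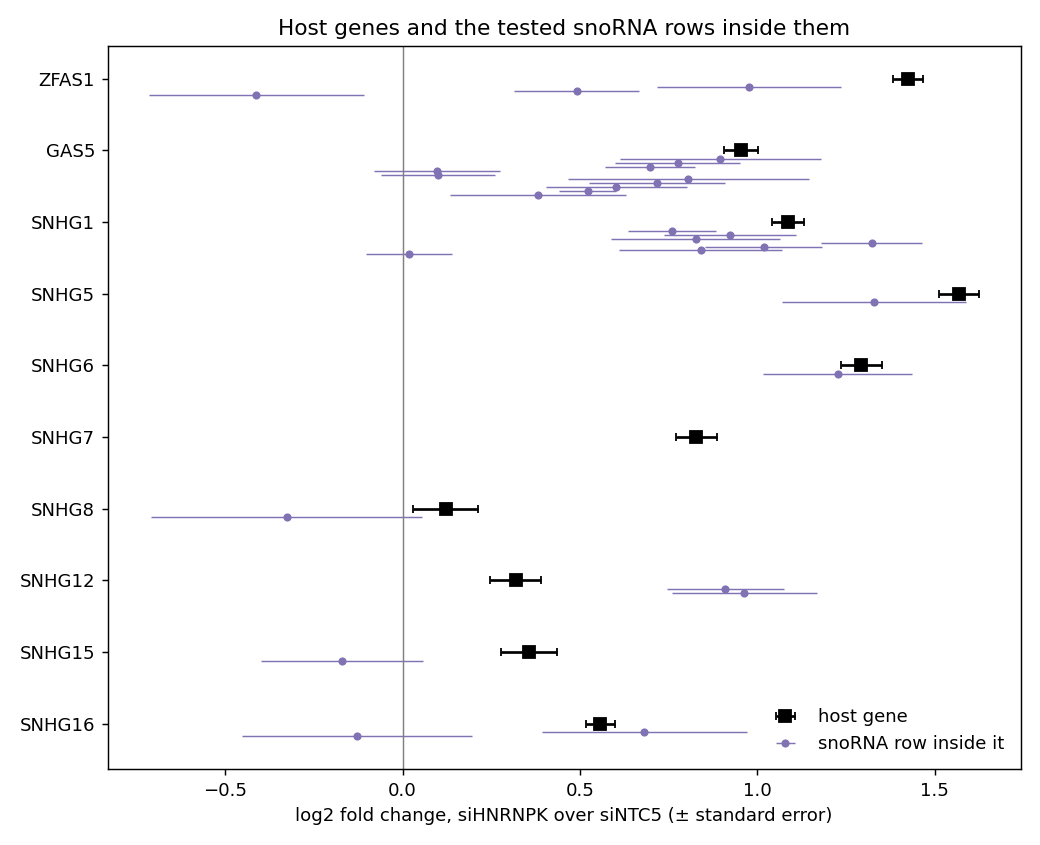
Log2 fold change of siHNRNPK over siNTC5, with standard errors, for each host gene (squares) and each tested snoRNA row inside it (circles). The ZFAS1 circles lie to the left of its square, from -0.41 to 0.98, and the SNHG12 circles lie to the right of theirs, at 0.91 and 0.96. ZFAS1 was chosen for its rise.

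Of 10 genes that overlap a member or lie within 1000 bases of it, 8 were tested, with 5 called higher and 3 lower, beside 35.5% and 36.1% of all tested genes. With the Scramble libraries added to the controls, 2 were called higher and 1 lower, beside 3374 higher and 3672 lower of 14642 genes. DIPK1B is not named in the Scramble tables and was not tested in that setting. ZNFX1, a helicase-like zinc finger gene 121 bases from ZFAS1, rose by 0.50 ± 0.05 (adjusted p = 2.39e-08), beside 1.42 for ZFAS1. ZBTB37, which overlaps GAS5, rose by 0.84 ± 0.05 (adjusted p = 6.38e-11). SLC3A2, the heavy chain of amino acid transporters, starts 224 bases from SNHG1 and rose by 0.84 ± 0.06 (adjusted p = 5.09e-10). Against Scramble, where SLC3A2 had 736 and 634 CPM, the siHNRNPK libraries were instead lower, by -0.71 ± 0.08 on the log2 scale, and the rise did not pass with Scramble libraries among the controls (0.27, adjusted p = 0.577). ST6GALNAC2, a sialyltransferase 29 bases from SNHG16, rose by 1.02 ± 0.11 (adjusted p = 1.17e-07), beside 0.56 for SNHG16. ST6GALNAC2 had 20.9 and 21.7 CPM in Scramble, a log2 difference of -0.30 ± 0.12 for siHNRNPK over Scramble, and with Scramble libraries among the controls the rise did not pass (0.53, adjusted p = 0.209). The call of ZBTB37 was lost in that setting too (1.37, adjusted p = 0.151).

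PRSS12, a serine protease gene 215 bases from SNHG8, fell by 0.88 on the log2 scale (SE 0.08, adjusted p = 6.02e-09), while SNHG8 had 0.12. TRNAU1AP, which overlaps SNHG12 and acts in selenocysteine incorporation, fell by 0.47 (SE 0.09, adjusted p = 0.000157), a call lost with Scramble libraries among the controls (adjusted p = 0.0541). DIPK1B, which overlaps SNHG7, fell by 0.25 (SE 0.11, adjusted p = 0.0495), a call lost in 12 of 18 alternatives. MCMDC2, which overlaps SNHG6 and had at most 41 counts, rose by 0.88 ± 0.32 (adjusted p = 0.0200), a call lost in 6 of 18. It had 9 counts in siNTC5 replicate 1, under the level of the filter, and reached that level in every siHNRNPK library. Its entry into the test therefore used the group where it was high. The kits mark strand, but the strand setting of the counting is not given in the sources used here. Reads shared by overlapping genes can therefore not be assigned to a strand.

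Other genes of the snoRNA and decay pathways were read from 4 lists, by counts and medians only, and each count stands beside the 35.5% of all tested genes called higher and the 36.1% called lower. Values against Scramble are set beside them and share the siHNRNPK libraries, and there 38.8% of all genes were called higher and 42.4% lower. Of 20 other noncoding hosts, 18 were tested, with 10 called higher, 1 lower and 7 not passing, and a median log2 fold change of 0.40. Against Scramble, 13 were tested, with 8 higher, 3 lower and a median of 1.35. SNHG32 rose by 1.34 ± 0.34 (adjusted p = 0.001604) and SNHG11 by 1.20 ± 0.11 (adjusted p = 1.75e-08). SNHG26 fell by 0.35 (SE 0.15, adjusted p = 0.0478), and that call was lost in 14 of 18 alternatives.

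Of 43 coding hosts, mostly ribosomal protein and ribosome biogenesis genes, 41 were tested, with 30 higher, 2 lower and a median of 0.36. Against Scramble the 41 split into 17 higher and 14 lower, with a median of 0.02. NOP58, a core protein of box C/D particles, rose by 0.91 ± 0.05 (adjusted p = 1.18e-11), and TAF1D, a subunit of an RNA polymerase I factor, by 0.82 ± 0.05 (adjusted p = 4.72e-11). PPAN, a ribosome biogenesis gene, fell by 1.37 (SE 0.12, adjusted p = 1.10e-08), and TNPO2, a nuclear import receptor, by 0.40 (SE 0.05, adjusted p = 2.02e-06). With the Scramble libraries added to the controls, 14 of 41 coding hosts and 5 of 13 other noncoding hosts were called higher. Over all 14642 genes tested in that setting, 3374 were called higher and 3672 lower.

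Of 18 snoRNP proteins, 16 were tested, with 9 higher, 5 lower and a median of 0.32. Against Scramble all 18 were tested, with 9 higher, 8 lower and a median of 0.08. ZNHIT6, an assembly factor of box C/D particles, rose by 0.76 ± 0.06 (adjusted p = 4.27e-09). RUVBL1, an ATPase of the assembly complex, fell by 0.69 (SE 0.05, adjusted p = 1.71e-10), and RPAP3, an assembly cochaperone, fell by 0.30 (SE 0.05, adjusted p = 6.83e-05).

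All 18 RNA decay factors were tested, with 13 higher, 4 lower and a median of 0.27. Against Scramble 17 were tested, with 14 higher, 2 lower and a median of 0.31. UPF3B, a nonsense-mediated decay factor bound to exon junctions, rose by 0.84 ± 0.07 (adjusted p = 3.69e-09), and DIS3, a nuclease of the exosome, by 0.72 ± 0.05 (adjusted p = 9.02e-11). UPF3A, the paralogue of UPF3B, fell by 1.00 (SE 0.11, adjusted p = 1.03e-07). SMG6, the endonuclease of nonsense-mediated decay, fell by 0.77 (SE 0.07, adjusted p = 1.35e-08).

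**Figure D4:**
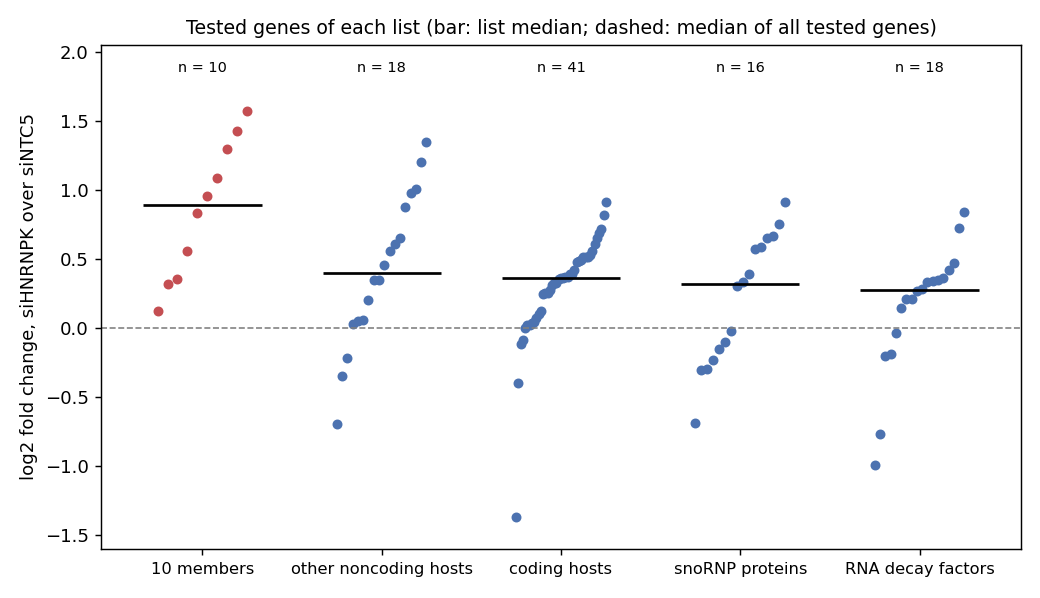
Log2 fold change of siHNRNPK over siNTC5 for each tested gene of the members and of 4 gene lists, in rank order within a list. The bars mark medians, which for the 4 lists run from 0.27 for decay factors to 0.40 for other noncoding hosts. The member bar lies higher and includes ZFAS1, which was chosen for its rise. The dashed line marks the median of all tested genes, -0.00.

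The genes whose log2 CPM ran most like that of ZFAS1 over the 8 libraries were MBIP, XPA, ZNF561, STAMBP and SMAD3. Their Pearson r with ZFAS1 was 0.998 to 0.999, the highest among 9998 genes with an average log2 CPM of at least 3. The 8 libraries fall into 2 groups, so these values describe how cleanly a gene splits them and carry no test. The log2 fold changes of the 5 were 0.63 ± 0.07, 0.92 ± 0.08, 0.92 ± 0.05, 0.98 ± 0.04 and 0.73 ± 0.04 in that order. With the kit mean removed, MBIP alone stayed among the closest 5. Among the members SNHG5 ranked 34th with r = 0.996 and GAS5 168th with r = 0.990, whereas SNHG8 had r = 0.281.

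The Scramble libraries give a second nontargeting control, on the 25527 names shared by the tables. Purification, depth and count table all change with this group, and the submitters' processing notes name hg19 beside hg38 for it. A difference between Scramble and siNTC5 therefore cannot be told apart from these. The tables also count some genes differently. A total of 184 shared names had at least 100 counts in both Scramble libraries and 0 in all 8 others, and 2 names showed the reverse. SNORD25 in SNHG1 and SNORA61 in SNHG12 are examples, with 666 and 590 counts and 123 and 106 counts in Scramble, and 0 elsewhere.

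ZFAS1 had 204 and 189.6 CPM in Scramble, between the siNTC5 libraries (88.7 to 94.96) and the siHNRNPK libraries (239.7 to 256) on the same scale. Its log2 fold change was 1.08 ± 0.05 for Scramble over siNTC5 and 0.34 ± 0.05 for siHNRNPK over Scramble. The rise after HNRNPK siRNA was thus 2.69-fold against siNTC5 and 1.26-fold against Scramble. Both are descriptions, since they share libraries with the comparison that chose ZFAS1.

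Of the other 9 members, 4 were called higher and 4 lower in Scramble than in siNTC5, beside 37.5% and 31.8% of all 14642 genes tested. SNHG8 had 85.1 and 83.4 CPM in Scramble and rose by 1.45 ± 0.11 on the log2 scale (adjusted p = 7.51e-10). SNHG6 rose by 0.57 ± 0.07, SNHG5 by 0.30 ± 0.07 and SNHG16 by 0.26 ± 0.05 (adjusted p = 1.54e-06, 0.000823 and 0.000141). SNHG12 had 12.3 and 12.1 CPM and fell by 2.10 (SE 0.10, adjusted p = 1.30e-12), the largest difference of the 10. SNHG1 fell by 1.12, SNHG7 by 0.85 and GAS5 by 0.58 (adjusted p = 7.48e-12, 1.20e-08 and 1.10e-07). SNHG15 had -0.15 ± 0.10 and did not pass (adjusted p = 0.186).

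These directions depend in part on scaling, because unscaled library totals moved the median of all genes from 0.04 to -0.20 and upper-quartile normalisation to -0.10. The split of calls over all genes was 5495 higher and 4651 lower as reported, 3626 and 6700 with unscaled totals and 4380 and 5770 with upper-quartile normalisation. With unscaled totals SNHG5 had 0.07 and SNHG16 0.02, neither of which passed (adjusted p = 0.397 and 0.691), and SNHG15 had -0.38 (adjusted p = 0.00150). ZBTB37, the gene overlapping GAS5, was 3.74 lower on the log2 scale in Scramble, with 4.47 and 5.01 CPM against 57.1 to 63.3 in siNTC5.

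Against Scramble, 8 of the 9 were higher in siHNRNPK and SNHG8 was lower, beside 38.8% and 42.4% of all genes called higher and lower. The log2 fold changes were 2.42 ± 0.10 for SNHG12, 2.19 ± 0.06 for SNHG1, 1.67 ± 0.08 for SNHG7 and 1.53 ± 0.06 for GAS5. They were 1.26 ± 0.07 for SNHG5, 0.71 ± 0.07 for SNHG6, 0.49 ± 0.10 for SNHG15 and 0.29 ± 0.05 for SNHG16. SNHG8 fell by 1.34 (SE 0.11, adjusted p = 1.605e-09). Set side by side, ZFAS1, SNHG5, SNHG6, SNHG8 and SNHG16 had lower values against Scramble than against siNTC5, and GAS5, SNHG1, SNHG7, SNHG12 and SNHG15 had higher ones. The comparisons share the siHNRNPK libraries, and the order of the members by size changed with the control used.

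**Figure D5:**
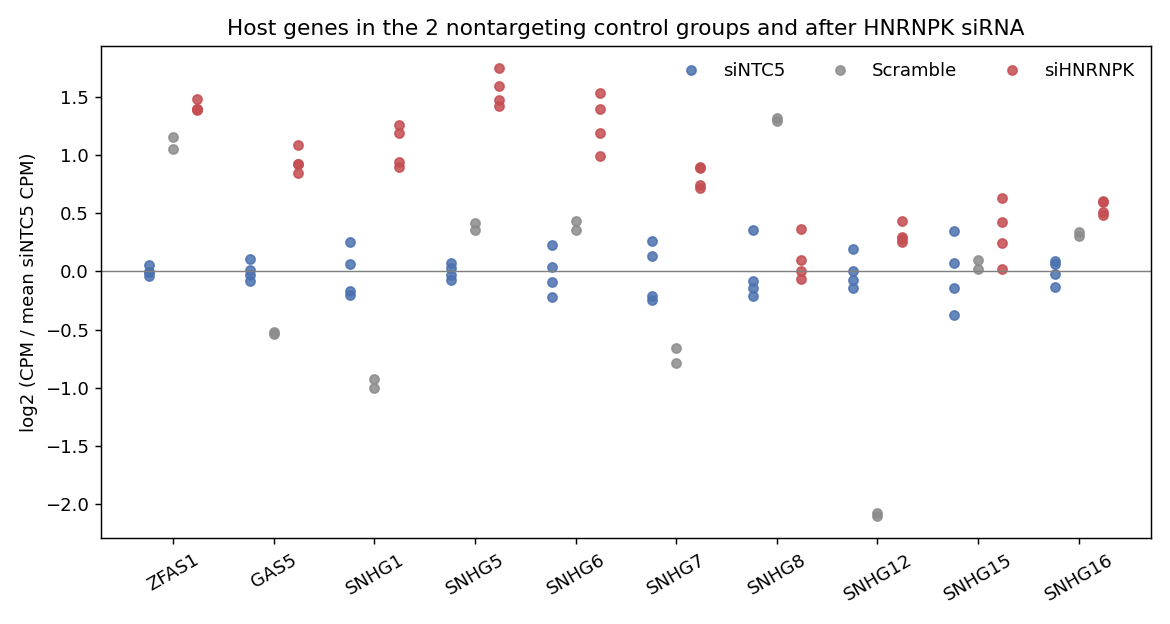
CPM of each host gene in each library as log2 of the ratio to the mean of the siNTC5 libraries, on the names shared by all count tables. Scramble points lie above 0 for ZFAS1 (204 and 189.6 CPM) and SNHG8 (85.1 and 83.4 CPM) and far below it for SNHG12 (12.3 and 12.1 CPM).

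The deposited chromatin domains were read at the member loci, with 7 lists for lamin B1, which lines the inner nuclear membrane, and for the histone marks H3K9me2, H3K9me3 and H3K27me3. These marks are associated with silent chromatin. No member overlapped a lamin B1 domain in control or siHNRNPK cells, where 4.06% and 3.46% of 13482 tested genes with a position did. No member overlapped an H3K9me2 domain (1.602% of the genes) or an H3K27me3 domain in control or siHNRNPK cells (14.9% and 12.9%). SNHG5 lay wholly inside an H3K9me3 domain in both control and siHNRNPK cells, and was the only member in such a domain (4.35% and 9.56% of the genes). The control domain over SNHG5 was not among the upper part of that list's scores by the median. In siHNRNPK cells SNHG5 did overlap a domain from the upper part of the scores. The nearest control lamin B1 domain was 61.3 kb from SNHG5 and 2956 kb from ZFAS1. The ChIP samples were replicated, but each list is a single set of domains without values per replicate, so these overlaps carry no test.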

How the data were processed

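RNA was measured in 10 HCT116 libraries. The authors deposited raw counts per gene symbol, as whole numbers, in 1 table of 8 libraries and 2 Scramble tables. The submitters' processing notes name STAR 2.7.1a and featureCounts, with Subread 2.0.6 and hg38 for the 8 libraries and with DESeq2, hg19 and hg38 for Scramble. The role and order of these, the annotation and the strand setting are not given in the sources used here. The authors also deposited 7 ChIP domain lists, in which each domain carries a score of unstated unit, and the notes name hg38 for them. The score was used only to take the upper part of each list.

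The main tool was edgeR 4.0.16 (R 4.3.3, limma 3.58.1). Low counts were removed with filterByExpr by group, library sizes were scaled by TMM, and a quasi-likelihood test was run with terms for kit and treatment. Benjamini-Hochberg adjustment covered every gene tested, at a threshold of 0.05. Comparisons with Scramble used 1 fit of all 10 libraries on shared names, with kit, treatment and Scramble terms. CPM values are TMM-normalised. Intervals on CPM are not given, and counts without molecular identifiers are not independent molecules. Tables were made in Python 3.11.15 (pandas 2.3.3, numpy 2.4.6) and plots with matplotlib 3.10.9. Each fit was also tested on counts simulated with 200 changed genes.

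Libraries of the same number deviated together from their group means (r across genes 0.100, 0.425, 0.337 and 0.265 for replicates 1 to 4), and same-numbered libraries share a kit. With the kit mean removed these were 0.058, 0.058, 0.009 and 0.009, so little was shared beyond the kit. A fit with the replicate number as a block, without the kit term, was therefore run as an alternative. The other alternatives were DESeq2 1.42.0 (its size factors and its Wald test), upper-quartile and unscaled totals, leaving out the filter, requiring 50 counts on average, dropping the kit term, each kit alone, Scramble libraries as added controls, the comparison of controls without siHNRNPK libraries, each library left out, domain spans widened by 10 kb, the upper part of the scores, and likeness with the kit mean removed.

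The members and lists were chosen with earlier results of these data known. Named genes are the members, genes within 1000 bases, the snoRNA genes inside members, the 2 highest and 2 lowest called genes of each list, the 5 genes most like ZFAS1, and HNRNPK. SNORD12B, SNORD12C, SNORD29, SNORD31, SNORD44, SNORD74, SNORD76, SNORD80 and the rows of small hosts fall under the snoRNA genes inside members. No exon lengths were used, so levels are not compared between genes.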

Additional observations from a re-analysis of the deposited data

Results flagged for a closer look

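Among 20 groups of 4 libraries (10 members in siNTC5 and siHNRNPK), 1 held a library far from the other 3 by Dixon's test. In siHNRNPK the highest ZFAS1 library, TruSeq replicate 2, had 256 CPM, against 241, 242 and 241 in the others. Chance flags about 1 in 20 groups. Without that library the ZFAS1 log2 fold change was 1.40.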

How the results depend on the processing

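In the replicate block, where same-numbered libraries are paired in place of the kit term, 9872 genes were called against 9968, 8 of the 9 members were called higher, and ZFAS1 had 1.43 (log2). The block ended the calls of SNORD1A (adjusted p = 0.0502) and SNHG26 (0.0664) and of no member. Over the alternatives other than added Scramble controls, the ZFAS1 rise ranged from 1.38 to 1.46; with Scramble libraries added to the controls it was 1.06. In that setting SNHG8 had -0.40 (adjusted p = 0.402) and SNHG12 0.71 (adjusted p = 0.224), and 7 of the 9 members were called higher. Of all 14642 genes tested there, 3374 were called higher and 3672 lower.

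Genes called for the kit interaction numbered 18 as reported, 65 with DESeq2 and 239 with no filter. With 1 library left out they ranged from 6 to 598, and the 2 highest counts, 364 and 598, came without siNTC5 replicates 1 and 2. Members called higher for that interaction ranged from 0 to 1 over the same omissions. With unscaled library totals 2 of the 9 members were called higher in Scramble than in siNTC5, instead of 4. For upper scores alone 0 members, instead of 1, lay in a control H3K9me3 domain. The cause of these shifts was not tested, apart from smaller lists and fewer samples by construction. In the table of 8 libraries, rows of snoRNA genes had 0 to 409 counts, which limits their precision.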
